A study of Mus musculus with 16 samples.

Results

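The genes of MHC class I antigen presentation followed across these libraries are 10 of the 24419 gene symbols in the expression tables: B2m, H2-K1 and H2-D1, which encode the light chain and both classical heavy chains of MHC class I; Tap1, Tap2 and Tapbp, which encode the peptide transporter and tapasin; Psmb8, Psmb9 and Psmb10, the catalytic subunits of the immunoproteasome; and Nlrc5, the transactivator of class I genes. They were chosen by name, and each matched 1 row. The study implanted MC38, a colon tumor line of C57BL/6 origin, in mice on the C57BL/6 background that were either wild type (Aire+/+) or lacking the autoimmune regulator (Aire-/-), all 8 weeks old, and gave them an antibody that blocks the checkpoint receptor PD-1 (anti-PD1) or an isotype control antibody. On day 19, tumors and spleens were pooled over the animals of a condition, sorted for CD45+ or CD8+ cells, and profiled by droplet single-cell RNA sequencing. Each of the 16 libraries is therefore 1 genotype, treatment, tissue and sort, there are no replicate libraries of a condition, and the spread between animals cannot be read from the data.

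MHC class I molecules carry peptides from inside the cell to its surface, where CD8 T cells and NK cells inspect them. The immunoproteasome cuts proteins into peptides that fit the class I groove, the Tap1-Tap2 transporter pumps them into the endoplasmic reticulum, and tapasin holds an empty heavy chain with its B2m light chain at the transporter until a peptide binds. Interferon-gamma is known to raise all of these genes, in part through Nlrc5, and lymphocytes carry more class I than most tissues.

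The tables hold 37609 cell barcodes, of which 37453 had at least 200 genes detected and at most 20% mitochondrial UMIs (unique molecular identifiers, 1 per captured RNA molecule); the other 156 were removed. Libraries held 1856 to 2944 of these cells and 10927391 to 38930017 UMIs. The median UMIs per cell were 9889 to 12252 in the tumor libraries of the CD45 sort and 8883 to 11164 in those of the CD8 sort, against 4414 to 4733 and 5801 to 6405 in the matching spleen libraries, so tissue and depth move together. Ribosomal protein genes held 14.3 to 18.8% of the UMIs in the tumor libraries of the CD45 sort and 23.5 to 25.7% in those of the CD8 sort, against 26.9 to 28.6% and 36.7 to 38.6% in the spleens. The median mitochondrial share of a cell was 1.93 to 2.21% and 1.75 to 2.14% in the tumors, against 3.91 to 4.90% and 3.35 to 4.51% in the spleens. The tests were therefore also run with library totals that leave out ribosomal protein and mitochondrial genes (reduced totals), without edgeR's scaling. Any pair of libraries shared 2 to 18 cell barcodes (median 7 over 120 pairs), at most 0.840% of the smaller library. Aire itself, the targeted gene, had 18 UMIs in all Aire+/+ libraries together and 6 in all Aire-/- libraries, which does not suffice for a check of the labelled genotypes.

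Cells were assigned to 8 types by the UMIs of marker genes, with none of the 10 genes among the markers; 33595 cells (89.7%) were assigned. They comprise 20342 CD8 T cells, 5821 B cells, 2849 macrophages, 2247 monocytes, 910 NK cells, 571 CD4 T cells without Foxp3, 527 Treg cells (Foxp3+) and 328 mature dendritic cells (DC). Macrophages and mature DC were described in tumors only and B cells in spleens only. A gene's level is its share of the UMIs of all cells of 1 type in 1 library, scaled to a total of 1000000 (CPM). A CPM depends on how a gene's RNA is captured, so levels are compared between cells and not between genes.

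H2-K1 and H2-D1 belong to a family of near-identical genes, which limits how surely a UMI can be given to one of them. Of the 55-base windows of the H2-K1 transcript, 6.13% also occur in transcripts of other genes, and of those of H2-D1, 11.6%. In the last 500 bases the share was 0 of 446 windows for H2-K1 and 31 of 446 (6.95%) for H2-D1. The labels name a 3′ library kit, while the study's methods name a 5′ kit for part of the single-cell work. The paper reports T cell receptor sequences for its CD8-sorted cells, and its methods obtain such sequences with the 5′ kit. Which end was read is therefore uncertain, above all in the CD8 sort, and so is the split of UMIs among H2 genes. The share in the last 500 bases bears only on libraries read from the 3′ end.

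UMIs of all 10 genes were counted in every cell type, with as few as 3 to 7 a library for Nlrc5 in splenic NK cells, and the share from free RNA was not estimated. The order of levels is taken over 15 classes of cell type, tissue and sort, each with 4 libraries, by the median CPM. B2m, the light chain shared by all class I molecules, had its highest median in mature DC, where the 4 libraries lay between 4003 and 4370 CPM. Tumor macrophages overlap that range, with 3649 to 4519 CPM. B2m was lowest in splenic B cells, between 1193 and 1292 CPM, a ratio of highest to lowest median of 3.34. H2-K1, a classical heavy chain, was highest in tumor Treg cells (5397 to 6188 CPM) and lowest in splenic monocytes (1413 to 1981 CPM), a ratio of 3.73. For H2-D1, the other classical heavy chain, tumor Treg cells were again highest (4219 to 4956 CPM) and splenic B cells lowest (1830 to 2192 CPM), a ratio of 2.31. Neighbours in these orders mostly overlap in their ranges: of 14 neighbouring pairs of classes, 3 stood apart for B2m, 3 for H2-K1 and 0 for H2-D1.

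Among the transport and loading genes, Tap1, which encodes a chain of the peptide pump, had its highest median in mature DC (510 to 648 CPM) and its lowest in splenic NK cells (107 to 189 CPM), a ratio of 4.51. Its partner Tap2 ran from tumor Treg cells (330 to 488 CPM) down to splenic monocytes (80.1 to 121 CPM), a ratio of 5.07. Tapbp, which encodes tapasin, ran from mature DC (592 to 706 CPM) to splenic CD8 T cells of the CD45 sort (197 to 226 CPM), a ratio of 2.87. Only 1 neighbouring pair of the 14 stood apart for Tap1, 2 for Tap2 and 1 for Tapbp, so most of each order is not resolved. Some ends overlap too. For Tap1, mature DC overlap tumor Treg cells (445 to 621 CPM), and splenic NK cells overlap splenic CD8 T cells of the CD45 sort (118 to 152 CPM). For Tap2, tumor Treg cells overlap mature DC (337 to 410 CPM).

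Mature DC of the CD45 sort had the highest medians of the immunoproteasome genes. Psmb8, the subunit that replaces Psmb5 of the standard proteasome, was at 2080, 1869, 2056 and 2109 CPM in mature DC. Each set of 4 values follows 1 order, isotype then anti-PD1 in Aire+/+ mice and then the same in Aire-/- mice. All 4 lie above the highest value of the next class, tumor Treg cells (1027 to 1162 CPM), which in turn lie above the class after it. Psmb9, which replaces Psmb6, was at 681, 643, 781 and 799 CPM in mature DC, and lowest in splenic CD8 T cells of the CD45 sort (173 to 213 CPM). Psmb10, which replaces Psmb7, also had its highest median in mature DC (291 to 375 CPM), in a range that overlaps those of tumor monocytes (314 to 347 CPM) and tumor macrophages (271 to 376 CPM), and was lowest in splenic B cells (136 to 148 CPM). The ratio of highest to lowest median was 4.03 for Psmb8, 4.08 for Psmb9 and 2.31 for Psmb10. Nlrc5, the transactivator, had its highest median in mature DC (42.7 to 62.8 CPM) and its lowest in splenic B cells (6.63 to 13.1 CPM), a ratio of 6.40. Both ends overlap other classes, among them tumor monocytes (37.7 to 65.4 CPM) and splenic NK cells (12.1 to 33.0 CPM).

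The UMIs of each immunoproteasome subunit over those of the standard subunit it replaces give a value that can be compared between cell types, though not between subunits. Psmb8 over Psmb5 had a median of 11.2 in mature DC (9.96 to 12.3 over 4 libraries), against 6.12 in the next class, tumor CD4 T cells, and 2.24 in the lowest, splenic monocytes. Psmb9 over Psmb6 ranged from 2.80 in mature DC (2.37 to 3.22), which overlap tumor Treg cells (2.47 to 2.72), down to 0.965 in tumor NK cells. Psmb10 over Psmb7 took another order, from 4.29 in splenic CD8 T cells of the CD8 sort to 1.92 in tumor Treg cells. In the CD8 sort, 1 tumor library held 28 mature DC, with lower ratios of 4.33 and 1.56 for the first pairs and Psmb8 at 1232 CPM, so the values above hold for the CD45 sort.

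**Figure D1:**
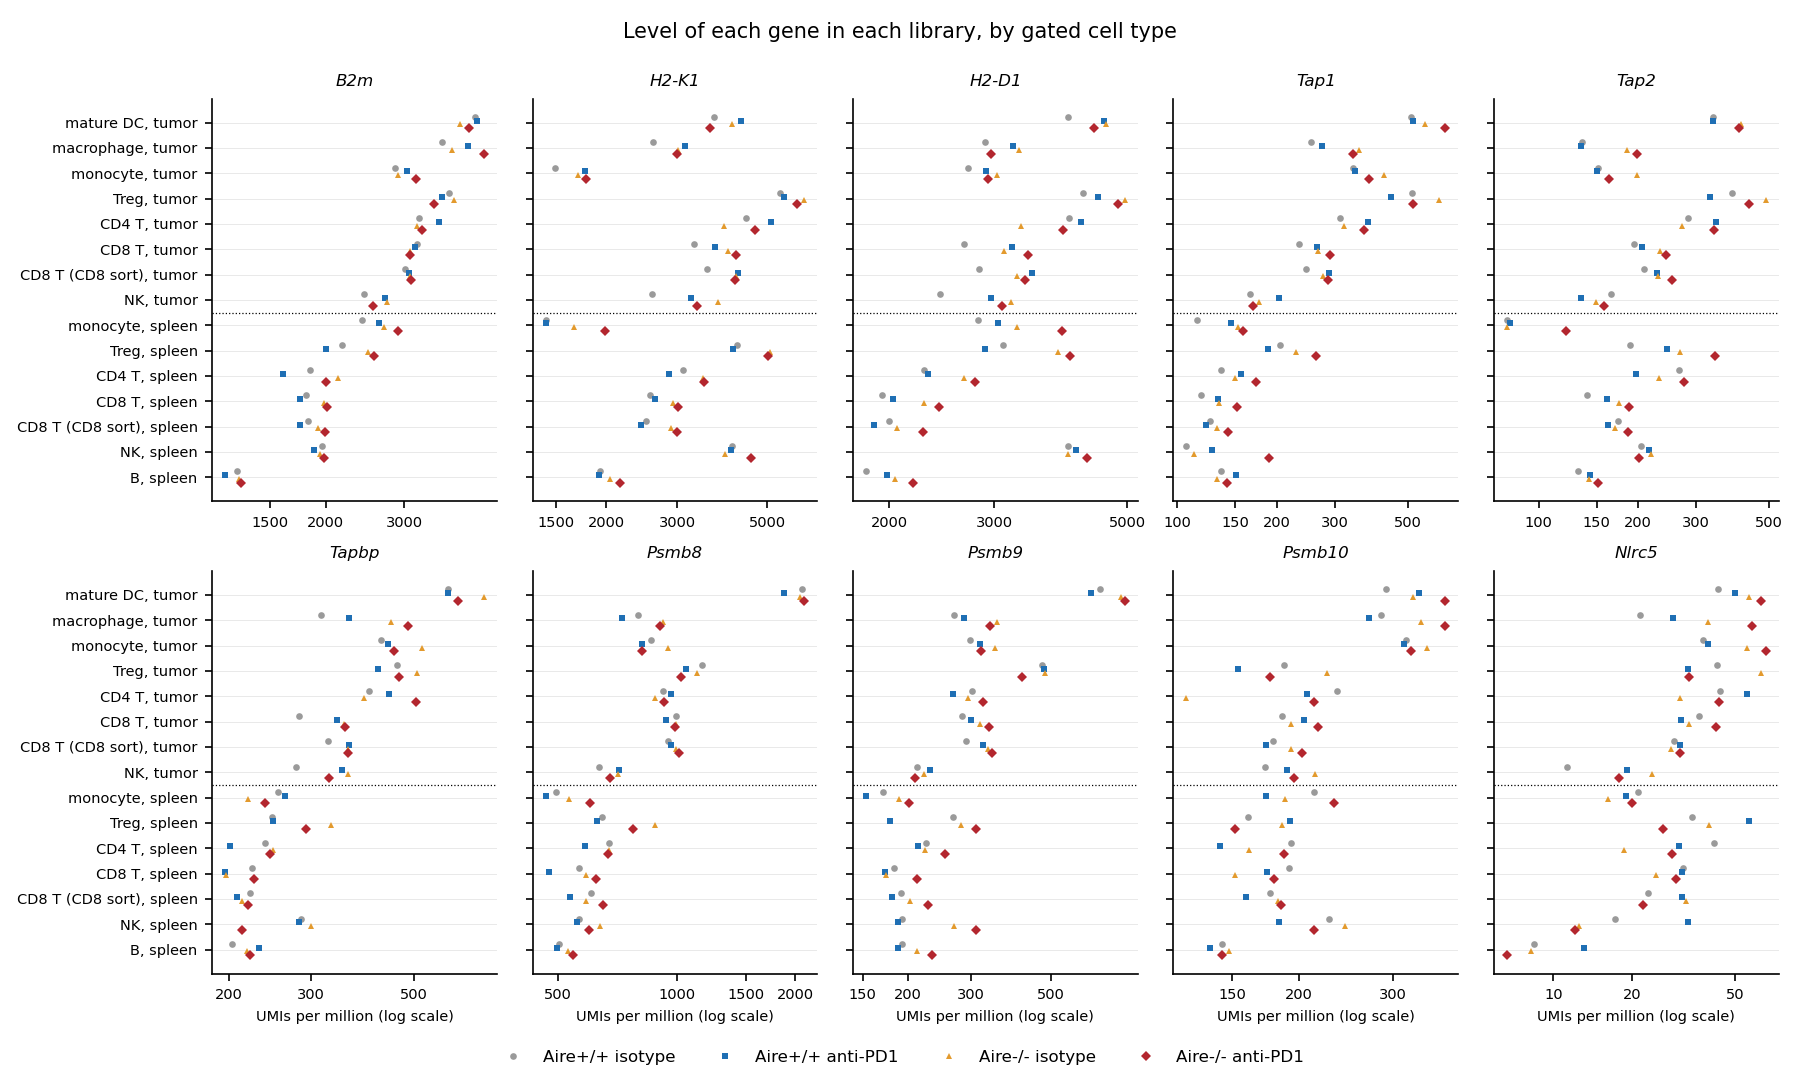
Each panel shows 1 gene, with its level in CPM (log axis) in each of the 4 libraries (colored by condition) of 15 classes of cell type, tissue and sort. Psmb8 in mature DC lies between 1869 and 2109 CPM, above every other class, and Nlrc5 has its lowest median in splenic B cells, between 6.63 and 13.1 CPM.

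The largest set of cells of one type in both tissues is the CD8 T cells of the CD8 sort, with 1735 to 2434 cells in each tumor library and 2246 to 2758 in each splenic library. The comparison asks how these genes differ between T cells in the tumor and those in the spleen of the same condition. The paper reports that its CD8 T cell clusters separated mainly by tissue. Its tumor cells were low in the naive marker L-selectin and high in the activation marker Cd69. The gated class therefore holds cells of different clusters in tumor and spleen, and the part of cell state in the differences was not tested. Tumors and spleens were compared with edgeR's quasi-likelihood test on the summed UMIs, with the condition as a block and p-values adjusted over all genes by the Benjamini-Hochberg method, and a gene was called at an adjusted p under 0.05. With 4 pooled pairs that differ in genotype and treatment, the p-values measure how steady a tissue difference is over the conditions, and not over animals. Of the 10 genes, 8 were higher in the tumor and 0 lower (8 at an unadjusted p under 0.05), where 77.5% of the 11379 genes tested were called 37.8% higher and 39.7% lower. The median log2 fold change of the 10 genes was 0.58, against -0.03 over all genes tested. With reduced totals 7 were higher and 1 lower, and the medians were 0.33 and -0.28.

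The light chain and the heavy chains were all higher in tumor CD8 T cells. B2m was at 3015, 3072, 3092 and 3107 CPM in the tumors and at 1830, 1751, 1920 and 1995 CPM in the spleens. The groups do not overlap, and the tumor values are nearly level across conditions (log2 fold change 0.62, adjusted p 1.7e-05, higher in 4 of 4 pairs). H2-K1 was at 3555, 4233, 4185 and 4173 CPM in the tumors, with the Aire+/+ isotype library lowest, and at 2514, 2438, 2895 and 2985 CPM in the spleens, with both Aire-/- libraries above both Aire+/+ ones. Its tumor and spleen values do not overlap either (log2 fold change 0.49, adjusted p 0.000195, higher in 4 of 4 pairs). H2-D1 lay between 2827 and 3465 CPM in the tumors and between 1888 and 2283 CPM in the spleens (log2 fold change 0.56, adjusted p 0.000124, higher in 4 of 4 pairs).

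Tap1 showed the largest change among the 10 genes in these cells. It was at 245, 288, 276 and 286 CPM in the tumors and at 126, 123, 132 and 143 CPM in the spleens. Every tumor value lies well above every splenic value, and the log2 fold change was 0.98 with a standard error of 0.05 (adjusted p 1.68e-06, higher in 4 of 4 pairs). Tap2, the other chain of the same pump, changed less: 208, 229, 230 and 254 CPM in the tumors against 174, 162, 171 and 186 CPM in the spleens, with a log2 fold change of 0.32 (adjusted p 0.000922, higher in 4 of 4 pairs); with reduced totals Tap1 was at 0.72 and Tap2 was not called (0.07). Tapbp lay at 327 to 362 CPM in the tumors and 208 to 222 CPM in the spleens (log2 fold change 0.62, adjusted p 2.33e-05, higher in 4 of 4 pairs).

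Of the immunoproteasome subunits, Psmb8 and Psmb9 were called higher in the tumor with edgeR's scaling, and Psmb10 was not called. Psmb8 was at 949, 970, 998 and 1012 CPM in the tumors and at 608, 536, 590 and 651 CPM in the spleens, without overlap (log2 fold change 0.63, adjusted p 1.89e-05, higher in 4 of 4 pairs). Psmb9 was at 291, 323, 335 and 342 CPM against 192, 181, 203 and 228 CPM, again without overlap (log2 fold change 0.59, adjusted p 2.47e-05, higher in 4 of 4 pairs). Psmb10 was at 179, 174, 193 and 203 CPM in the tumors and at 176, 159, 183 and 185 CPM in the spleens. These ranges overlap: with edgeR's scaling the log2 fold change was 0.00 (adjusted p 0.999) and 2 of 4 pairs were higher. In plain CPM 4 of 4 pairs were higher by a median of 0.11 on the log2 scale. With reduced totals it was called lower in the tumor (-0.25, adjusted p 0.00115), so its direction depends on the scale. Whether Psmb10 differs from the other subunits in its change was not tested. Nlrc5 was at 29.1, 30.6, 28.4 and 30.7 CPM in the tumors and 23.2, 31.2, 32.3 and 22.2 CPM in the spleens; the ranges overlap, and the change was not called (log2 fold change 0.05, adjusted p 0.682, higher in 2 of 4 pairs).

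The rest of the pathway was followed through lists of related genes in the same test. All 3 standard catalytic subunits were called higher in tumor CD8 T cells: Psmb7 by 0.83, Psmb6 by 0.67 and Psmb5 by 0.41 on the log2 scale. Among peptide loading and trimming genes, 7 of 10 were called higher and 1 lower, led by the chaperone Hspa5 (1.69) and the disulfide isomerase Pdia3 (0.84), with the tapasin relative Tapbpl lowest (-0.24). Of 16 other class I heavy chains tested, 8 were higher and 3 lower, from H2-Q10 (0.73) and H2-T10 (0.71) down to Cd1d1, which presents lipids (-1.56), and H2-T3 (-1.51). The proteasome activators and assembly factors gave 1 higher (Pomp, 0.52) and 1 lower (Psme1, -0.19) of 4. Of 19 regulators, 10 were higher and 6 lower: the cytokine gene Ifng had a log2 fold change of 6.84 and the transcription factor gene Irf8 of 5.26, while the receptor chain genes Ifngr2 (-2.96) and Ifnar2 (-0.97) fell.

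CD8 T cells also occur in the CD45 sort, in separate libraries of the same conditions, with 119 to 676 cells a library in tumors and 132 to 172 in spleens. There too 8 of the 10 genes were called higher and 0 lower (8 at an unadjusted p under 0.05), where 55.3% of 8241 genes were called, 28.2% higher and 27.1% lower, and their median log2 fold change was 0.49 against -0.03 over all genes. Tap1 was at 234, 265, 267 and 290 CPM in the tumors and 118, 133, 134 and 152 CPM in the spleens, a log2 fold change of 0.88 (adjusted p 5.28e-08, higher in 4 of 4 pairs). Psmb8 followed with 0.71, then Psmb9 (0.64), B2m (0.63), Tapbp (0.57), H2-D1 (0.42), H2-K1 (0.35) and Tap2 (0.30). Psmb10 (0.11) and Nlrc5 (0.21) were not called, though Psmb10 passed without the Aire+/+ isotype pair (0.25, adjusted p 0.0333). With reduced totals 6 genes were called higher, and H2-K1 (0.12) and Tap2 (0.07) were not. The sorts can be set side by side directly: over 80 values of the 10 genes in 4 conditions and both tissues, the median absolute log2 ratio between the CD8 sort and the CD45 sort was 0.067, and the largest was 0.45, for Nlrc5.

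CD4 T cells without Foxp3 were few, with 25 to 35 cells in the tumor libraries and 72 to 148 in the splenic ones. The gate required 0 UMIs of Foxp3, which does not show that a cell lacks it. Gated Treg cells numbered 38 to 133 in the tumor libraries and 33 to 63 in the splenic ones. The part of Treg cells without a counted Foxp3 UMI in the differences below was not tested. Of the 10 genes, 7 were called higher in the tumor and 0 lower (8 at an unadjusted p under 0.05), where 24.2% of 5037 genes were called, 14.5% higher and 9.67% lower; the median log2 fold change was 0.62 against -0.02 over all genes. Tap1 was at 312, 377, 321 and 367 CPM in the tumors and 136, 156, 150 and 174 CPM in the spleens. No tumor value comes near a splenic one, and the log2 fold change was 1.24 with a standard error of 0.15 (adjusted p 1.13e-05, higher in 4 of 4 pairs). Tapbp rose by 0.98 (adjusted p 0.00013) and B2m by 0.90 (adjusted p 4.69e-05), each in 4 of 4 pairs. H2-D1 rose by 0.70 (adjusted p 0.000775), Psmb8 by 0.59 (adjusted p 0.00347), H2-K1 by 0.57 (adjusted p 0.00355) and Psmb9 by 0.46 (adjusted p 0.0399), each in 4 of 4 pairs. Tap2 (0.44, adjusted p 0.0529), Nlrc5 (0.65, adjusted p 0.143) and Psmb10 (0.25, adjusted p 0.347) were not called.

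Some of the CD4 T cell calls did not hold with 1 pair left out. The count of genes called was 4 without the Aire+/+ isotype pair, 5 without the Aire+/+ anti-PD1 pair, 6 without the Aire-/- isotype pair and 4 without the Aire-/- anti-PD1 pair. Psmb9 lost its call in all 4 of these fits, with log2 fold changes of 0.28, 0.37, 0.30 and 0.30. Psmb8 lost it in 3, with 0.44, 0.42 and 0.44 without the Aire+/+ isotype, Aire+/+ anti-PD1 and Aire-/- anti-PD1 pairs, and H2-K1 in 2, with 0.39 and 0.43 without the Aire+/+ isotype and Aire-/- anti-PD1 pairs. H2-K1 stayed called without the Aire+/+ anti-PD1 pair, at 0.36. Tap1, Tapbp, B2m and H2-D1 were called in each of these fits, and also with reduced totals (0.93, 0.67, 0.59 and 0.39). With the gates' minimums doubled 4 of the 9 genes tested were called, H2-D1 with a log2 fold change of 0.44. That fit held 3 conditions, because the Aire+/+ isotype tumor library kept only 12 such cells, so gate and left-out pair cannot be told apart. In the related lists, 7 of 13 regulators were higher and 0 lower, led by Irf8 (3.45) and Ifngr1 (2.61), and 2 of 10 loading genes were higher, Hspa5 (1.31) and Calr (0.87). The other heavy chains gave 5 higher and 1 lower of 10, from H2-Q5 (1.31) and H2-Q8 (0.82) down to Cd1d1 (-1.28), and none of the 3 standard subunits was called.

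NK cells, which are held back by class I on the cells they meet and which themselves carry class I, gave a different picture, with 106 to 271 cells in the tumor libraries and 48 to 86 in the splenic ones. Of the 10 genes, 4 were called higher in tumor NK cells and 0 lower (4 at an unadjusted p under 0.05), where 38.6% of 7747 genes were called, 21.4% higher and 17.2% lower; the median log2 fold change was 0.26 against -0.01. Scaling matters more in these cells than in T cells: the edgeR scaling factors of tumor and splenic NK cells differ by -0.34 on the log2 scale, so each edgeR fold change lies that much above the plain CPM ratio. B2m was at 2443, 2717, 2750 and 2550 CPM in the tumors and 1967, 1888, 1946 and 1984 CPM in the spleens, higher in 4 of 4 pairs on either scale (log2 fold change 0.76, adjusted p 3.84e-07; 0.41 with library totals). Tap1 was at 166, 204, 177 and 169 CPM against 107, 127, 113 and 189 CPM. The Aire-/- anti-PD1 pair is reversed in plain CPM, and the log2 fold change was 0.76 (adjusted p 0.00111, higher in 4 of 4 pairs after scaling; 0.42 with library totals). Tapbp (0.61, adjusted p 0.00117) and Psmb8 (0.54, adjusted p 0.000217) were higher in 4 of 4 pairs after scaling, but with library totals neither was called (0.27 and 0.20), and with reduced totals both were (0.40 and 0.34).

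The heavy chains of NK cells went the other way in plain CPM. H2-K1 was at 2597, 3233, 3772 and 3350 CPM in tumor NK cells and at 4090, 4072, 3942 and 4564 CPM in splenic NK cells, lower in the tumor in 4 of 4 pairs and without overlap. H2-D1 was at 2436, 2959, 3201 and 3089 CPM against 3981, 4114, 3982 and 4290 CPM, likewise without overlap. Tap2 was at 166, 134, 150 and 158 CPM against 205, 217, 219 and 201 CPM, the third gene with this order. With edgeR's scaling none of the 3 was called (log2 fold changes -0.04, -0.16 and -0.13), and with library totals all 3 were called lower (-0.39, -0.51 and -0.48; adjusted p 0.00082, 1.72e-05 and 0.00781, each lower in 4 of 4 pairs), so whether they fell or held level depends on the scale. With reduced totals H2-K1 (-0.25, adjusted p 0.0414) and H2-D1 (-0.37, adjusted p 0.00248) were called lower and Tap2 was not (-0.34, adjusted p 0.0522). Psmb9 (0.20), Psmb10 (0.15) and Nlrc5 (0.32) were not called, and their sign turns with library totals (-0.14, -0.19 and -0.02); without the Aire-/- anti-PD1 pair, Psmb9 was called at 0.44 (adjusted p 0.0423).

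The sum of the 5 NK markers moved with tissue in these cells: 1322, 1292, 1429 and 1378 CPM in the tumors against 4770, 4519, 4717 and 5401 CPM in the spleens, with all 5 markers detected in each library and Ncr1 the most abundant in 6 of the 8 sums and Klrb1c in the other 2. The monocyte list, mostly Ly6c2, was at 267, 434, 496 and 404 CPM in the tumors and 1169, 1059, 1148 and 825 CPM in the spleens, with Ly6c2 the most abundant gene in every library. Of its 7 genes, 4, 3, 5 and 5 had a UMI in the tumors and 1, 1, 5 and 1 in the spleens; Treml4 was at 0 in all of these sums but that of the Aire-/- anti-PD1 tumor, and Ace was at 0 in all but that of the Aire+/+ isotype tumor. The part of these lists, and of the deeper tumor libraries, in the differences between tumor and splenic NK cells was not tested. In the related lists, 4 of 4 proteasome activators and assembly factors were called higher, among them Pomp (0.83) and Psme2 (0.67), and all 3 standard subunits. Of 10 other heavy chains 0 were higher and 2 lower, with H2-Q2 lowest (-1.28), and of 14 regulators 5 were higher and 4 lower, from Socs1 (2.14) and Irf8 (2.04) to Irf2 (-1.08) and Ifnar2 (-0.95).

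Whether the tumor-against-spleen difference is itself unequal between NK cells and CD8 T cells was tested directly in the CD45 sort, with the library as a block. Of the 10 genes, 4 differed, all lower in NK cells, where 21.5% of 9135 genes were called and 11.5% were lower. The median difference of the 10 genes was -0.12, against -0.06 over all genes. The 4 genes lay between percentile 23.9 (H2-D1) and percentile 32.0 (H2-K1) of all differences, so many other genes shifted further down. The difference was -0.56 for H2-D1 on the log2 scale (standard error 0.09, adjusted p 0.000158), -0.38 for H2-K1 (adjusted p 0.0062), -0.43 for Tap2 (adjusted p 0.0368) and -0.42 for Psmb9 (adjusted p 0.0439). H2-D1 kept its call whichever condition was left out, whereas H2-K1 lost it without the Aire-/- anti-PD1 libraries (-0.34, adjusted p 0.0584), Psmb9 without the Aire-/- isotype or the Aire-/- anti-PD1 libraries (-0.34 and -0.28), and Tap2 in each of the 4 fits (-0.39 to -0.49). With the Aire-/- isotype libraries left out 2 genes were called, and with the Aire-/- anti-PD1 libraries left out 1. DESeq2 called 2 genes, and reduced totals 3, without Psmb9 (-0.40, adjusted p 0.0596). With library totals 9 genes were called lower in NK cells, and B2m, Tapbp and Psmb10, not called with edgeR's scaling, changed sign, from 0.14, 0.07 and 0.07 to -0.31, -0.38 and -0.39. A change of scale moves all genes alike. In the separate tests, the scaling factors of tumor and spleen differ by -0.34 in NK cells and 0.10 in CD8 T cells (log2). The 9 calls and the sign changes therefore depend on the scale, and no result about these genes is read from them.

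**Figure D2:**
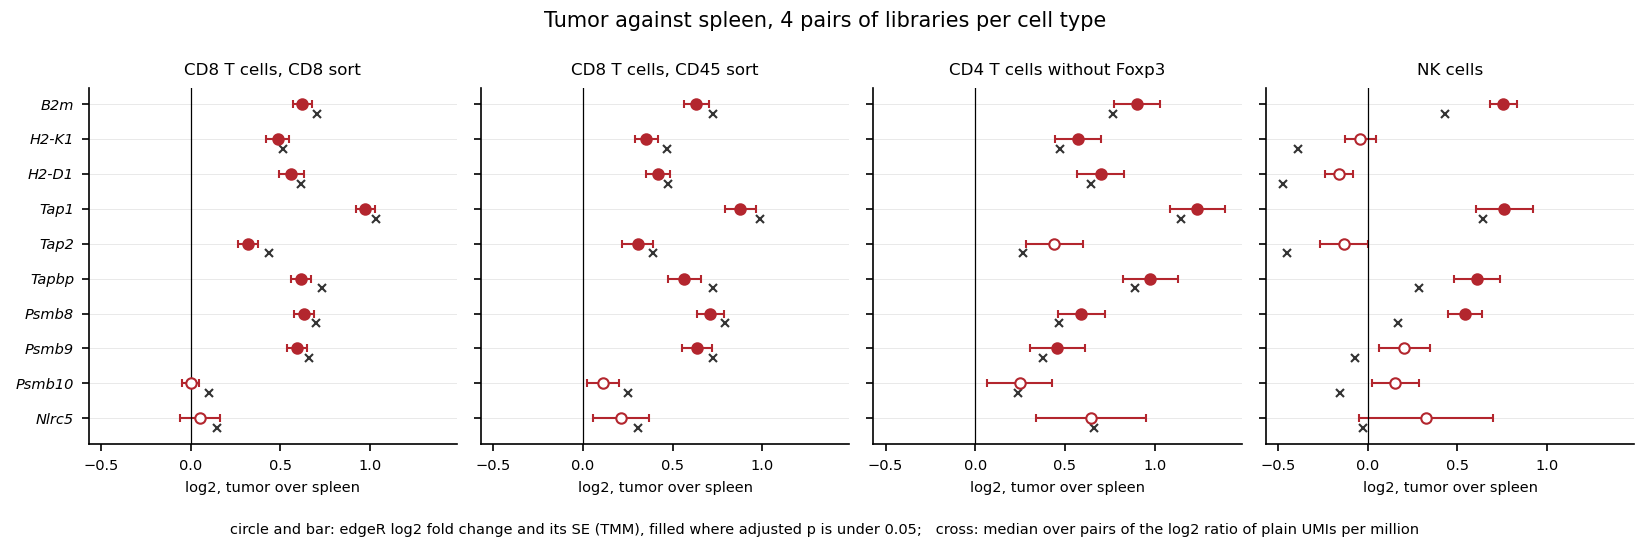
The points show the edgeR log2 fold change of each gene between tumor and spleen with its standard error (filled where the adjusted p was under 0.05), and the crosses the median log2 ratio of plain CPM, in 4 sets of cells with 4 pairs each. Tap1 lies between 0.76 and 1.24 in the 4 sets, while H2-K1 in NK cells is at -0.04 with edgeR's scaling and at -0.39 in plain CPM.

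Within the tumor, macrophages, which can present antigen to T cells, were set against CD8 T cells of the same CD45-sort library. Macrophages were called higher in 4 of the 10 genes and lower in 2, where 64.2% of 10313 genes were called, 33.0% higher and 31.2% lower; the median was 0.20 against -0.00 over all genes. The scaling factors differ by -0.18 (log2), which puts the edgeR values that much above the plain CPM ratios. Psmb10 had the largest difference, with 284, 271, 338 and 376 CPM in macrophages and 186, 204, 193 and 217 CPM in CD8 T cells, no overlap, and a log2 fold change of 0.84 (adjusted p 2.4e-05, higher in 4 of 4 libraries). B2m was at 3649, 4170, 3838 and 4519 CPM in macrophages and 3197, 3162, 3088 and 3082 CPM in CD8 T cells, also apart (0.54, adjusted p 0.000283, higher in 4 of 4 libraries). Tapbp (0.44, adjusted p 0.00282) and Tap1 (0.39, adjusted p 0.00454) were higher in 4 of 4 libraries with overlapping ranges, and Tap1 was not called with library totals (0.20).

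H2-K1 was lower in macrophages, at 2609, 3133, 3001 and 2991 CPM, than in CD8 T cells, at 3305, 3716, 4002 and 4198 CPM, in 4 of 4 libraries and without overlap in plain CPM (log2 fold change -0.19, adjusted p 0.0386). Tap2 was lower by the same count (-0.26, adjusted p 0.0376). Both calls are fragile: H2-K1 lost it in each fit without 1 condition (-0.13 to -0.20), and Tap2 without the Aire+/+ isotype (-0.19), the Aire+/+ anti-PD1 (-0.17) or the Aire-/- isotype (-0.28) library. H2-D1 was not called (0.18, adjusted p 0.0549), but it was without the Aire-/- anti-PD1 library (0.27), and Nlrc5 (0.22) was called without the Aire+/+ isotype library (0.45). With library totals H2-D1 was at -0.00, and Psmb8, not called with edgeR's scaling (-0.05), was called lower (-0.23, adjusted p 0.0385, lower in 4 of 4 libraries in plain CPM). Without the library block neither H2-K1 nor Tap2 was called. With reduced totals only Psmb10 was called higher in macrophages (0.42) and 5 genes lower, with a median of -0.42 over all genes: B2m (0.12), Tapbp (0.02) and Tap1 (-0.04) lost their calls, and H2-D1 (-0.24) and Psmb9 (-0.23) joined H2-K1 (-0.61), Tap2 (-0.68) and Psmb8 (-0.47). In the related lists, 9 of 19 regulators were higher in macrophages and 5 lower, and of 14 other heavy chains 4 were higher and 7 lower.

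Tumor macrophages and tumor monocytes, which share a lineage, differed in most of these genes, with a scaling shift of 0.21 (log2) that puts the edgeR values below the plain CPM ratios. There were 2 of the 10 genes called higher in macrophages and 7 lower, where 59.7% of 9742 genes were called, 29.7% higher and 30.0% lower; the median was -0.26 against 0.02. H2-K1 was at 1493, 1770, 1706 and 1785 CPM in monocytes, far below the macrophage values, with a log2 fold change of 0.59 (adjusted p 3.43e-06, higher in 4 of 4 libraries). Nlrc5 went the other way, at 21.5, 28.7, 39.4 and 58.1 CPM in macrophages and 37.7, 39.2, 55.5 and 65.4 CPM in monocytes, lower in 4 of 4 libraries although the ranges overlap (-0.71, adjusted p 3.92e-05). Tap1 was at 254, 274, 356 and 340 CPM in macrophages and 341, 345, 424 and 380 CPM in monocytes (-0.50, adjusted p 3.98e-05, lower in 4 of 4 libraries), and Tapbp followed (-0.42, adjusted p 0.001, lower in 4 of 4 libraries after scaling). Both genes are lowest in the Aire+/+ isotype library in macrophages.

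The smaller differences between macrophages and monocytes depend on the scale and on which libraries are fitted. Psmb8, Psmb9, Psmb10 and Tap2 were called lower with edgeR's scaling (-0.25, -0.26, -0.26 and -0.26) and not with library totals (-0.04, -0.05, -0.05 and -0.05). H2-D1 was below monocytes in 4 of 4 libraries after scaling and above them in 4 of 4 in plain CPM (-0.11 and 0.10, not called in either). B2m was called higher (0.22, adjusted p 0.0138, higher in 4 of 4 libraries), and not without the Aire+/+ anti-PD1 library (0.23, adjusted p 0.0656). The count of genes called was 5 without the Aire+/+ isotype library, 4 without the Aire+/+ anti-PD1 library, 6 without the Aire-/- isotype library and 9 without the Aire-/- anti-PD1 library. Psmb8, Psmb10 and Tap2 lost their calls in the first 3 of these fits (-0.19 to -0.24) and Psmb9 in the first 2 (-0.20 and -0.21). Without the library block 3 genes were called, and Nlrc5 was not among them (-0.71, adjusted p 0.0556). With reduced totals 5 were called, H2-K1 (0.81) and B2m (0.44) higher and Nlrc5 (-0.49), Tap1 (-0.29) and Tapbp (-0.20) lower. Of 18 regulators, 2 were higher and 10 lower in macrophages, with Irf1 (-1.27) and Socs1, an inhibitor of interferon signaling (-1.22), lowest.

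In the spleen, B cells carried less of most of these transcripts than T cells (CD8 and CD4 together) of the same library. In all, 7 of the 10 genes were called lower in B cells and 0 higher (7 at an unadjusted p under 0.05), where 48.4% of 9980 genes were called, 24.8% lower and 23.6% higher; the median was -0.31 against 0.01. Nlrc5 had the largest difference: 8.43, 13.1, 8.19 and 6.63 CPM in B cells, against 18.7 to 41.4 CPM over splenic CD4 and CD8 T cells of the same sort, a log2 fold change of -1.78 with a standard error of 0.17 (adjusted p 4.35e-10, lower in 4 of 4 libraries). B2m was at 1267, 1193, 1281 and 1292 CPM in B cells, with little spread across conditions (-0.66, adjusted p 5.44e-15, lower in 4 of 4 libraries). H2-K1 was at 1933, 1912, 2041 and 2161 CPM in B cells (-0.63, adjusted p 3.31e-15, lower in 4 of 4 libraries), and Tap2 at 131, 143, 142 and 152 CPM (-0.53, adjusted p 9.01e-09, lower in 4 of 4 libraries). Psmb10 (-0.35), Psmb8 (-0.27) and H2-D1 (-0.27) were called lower too, in 4 of 4 libraries each, and Tap1 (-0.10), Tapbp (-0.08) and Psmb9 (-0.04) were not. The same count of 7 was called whichever condition was left out, and with reduced totals. Among 18 regulators, 6 were higher in B cells and 5 lower, from Ciita, the class II transactivator (7.72), and Irf8 (5.06) to Socs1, the lowest (-2.45).

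The study's own question is about genotype and treatment, and there each combination of the 2 is 1 library in a tissue and sort. No test between conditions was made. The values below are log2 ratios of CPM between 2 libraries, with exact 95% intervals that cover counting error only and not differences between animals. A ratio of at least 0.5 either way was counted, among genes with at least 100 UMIs over the pair. Tumor macrophages numbered 1214, 847, 552 and 186 in the 4 conditions. In isotype-treated mice, all 10 genes were higher in Aire-/- than in Aire+/+ tumor macrophages, with a median log2 ratio of 0.32 against -0.03 over all genes, and 1 of the 10 passed 0.5, where 10.2% of 8913 genes passed in either direction and 5.59% upward. In anti-PD1-treated mice 8 of 10 were above 0, with a median of 0.31 against -0.10, and 2 of 10 passed, where 22.4% of 7843 genes passed in either direction and 7.59% upward. The genes that passed did so upward. With only 10 genes, counts of 1 and 2 are not read as different from the shares of all genes. The direction is more uniform than the size.

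Nlrc5, the transactivator, showed the largest ratio of the 10 genes between genotypes, at 21.5, 28.7, 39.4 and 58.1 CPM in tumor macrophages. Between genotypes, Aire-/- over Aire+/+, the log2 ratio was 0.87 (0.66 to 1.08) with isotype and 1.02 (0.72 to 1.31) with anti-PD1, from 402 and 342 UMIs in the first pair and 375 and 131 in the second. Both Aire-/- libraries are above both Aire+/+ ones, and within each genotype the anti-PD1 library is the higher. The ratio of anti-PD1 over isotype was 0.42 in Aire+/+ and 0.56 (0.26 to 0.86) in Aire-/- macrophages.

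The transporter genes followed the same order by genotype. Tap1 was at 254, 274, 356 and 340 CPM, with log2 ratios of Aire-/- over Aire+/+ of 0.49 (0.42 to 0.55) and 0.31. Tap2 was at 135, 134, 185 and 199 CPM, with 0.45 and 0.56 (0.41 to 0.71), and Tapbp at 316, 362, 447 and 484 CPM, with 0.50 (0.44 to 0.56; just under the cut of 0.5, and not counted) and 0.42. Both Aire-/- libraries lie above both Aire+/+ libraries for all 3 genes. The immunoproteasome subunits had the same order of genotypes: Psmb8 was at 798, 729, 924 and 907 CPM (0.21 and 0.31), Psmb9 at 270, 287, 354 and 337 CPM (0.39 and 0.23) and Psmb10 at 284, 271, 338 and 376 CPM (0.25 and 0.47).

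The chains of the class I molecule itself differed least between genotypes in these cells. B2m was at 3649, 4170, 3838 and 4519 CPM, with log2 ratios of 0.07 and 0.12, and both anti-PD1 libraries were above both isotype libraries. H2-K1 was at 2609, 3133, 3001 and 2991 CPM (0.20 and -0.07), and H2-D1 at 2888, 3227, 3297 and 2964 CPM (0.19 and -0.12), so the Aire+/+ isotype library was lowest for both; the negative H2-K1 ratio turned to 0.03 when centred on the median of all genes. Anti-PD1 over isotype gave 0 of 10 genes past 0.5 in Aire+/+ macrophages, where 3.65% of 9147 genes passed, and 1 of 10, Nlrc5, in Aire-/- macrophages, where 12.5% of 7039 passed. The medians were 0.13 against -0.02 and 0.05 against -0.09 over all genes.

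Related genes were read in the same macrophages. Among 18 regulators with enough UMIs, 4 passed 0.5 upward and 0 downward between genotypes with isotype. Ciita had a log2 ratio of 0.91 (0.68 to 1.15) and Socs1 of 0.87 (0.78 to 0.96), and the lowest were Rfxap (-0.21) and Ifnar1 (-0.10). With anti-PD1, 3 of 17 passed upward and 0 downward: Ciita gave 1.65 (1.30 to 1.99) and Socs1 1.16 (1.01 to 1.31), against Nfyc (-0.47) and Ifngr2 (-0.34) at the other end. The other heavy chains H2-T24 (0.68) and H2-T23 (0.62) were among 4 of 11 past 0.5 with isotype, and with anti-PD1 2 of 11 passed upward (H2-Q7 at 1.16 and H2-T23 at 0.51) and 2 downward (H2-Q2 at -1.14 and H2-Q8 at -0.65). The proteasome activator Psme2 gave 0.33 and 0.64 and its partner Psme1 0.29 and 0.30, while the standard subunits lay between -0.12 and 0.04 with isotype and between -0.20 and 0.15 with anti-PD1. Tapbpl (0.51 and 0.34) and the chaperone Calr (0.49 and 0.42) were the highest of the loading genes.

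The make-up of the macrophage class moved with the conditions too. The summed level of its 5 markers was 12046, 12811, 11088 and 9508 CPM, with C1qb the most abundant and all 5 detected in each library. The 7 monocyte markers, all detected in each library and led by Ly6c2, summed to 1304, 1822, 2184 and 2284 CPM in the same cells, in the same order of conditions as Nlrc5. The median UMIs per macrophage were 14344, 14615, 13958.5 and 11362, lowest in the Aire-/- anti-PD1 tumor, which also had the fewest macrophages. Over all cell types of that library, the median UMIs per cell, 9889, were the lowest of the CD45-sort tumors, and the ribosomal share, 18.8%, the highest. The part of each of these in the macrophage ratios was not tested. With each cell given equal weight, 4 of the 10 genes passed 0.5 between genotypes with isotype, in place of 1, and with the ratio centred on the median of all genes 3 passed with isotype and 4 with anti-PD1.

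**Figure D3:**
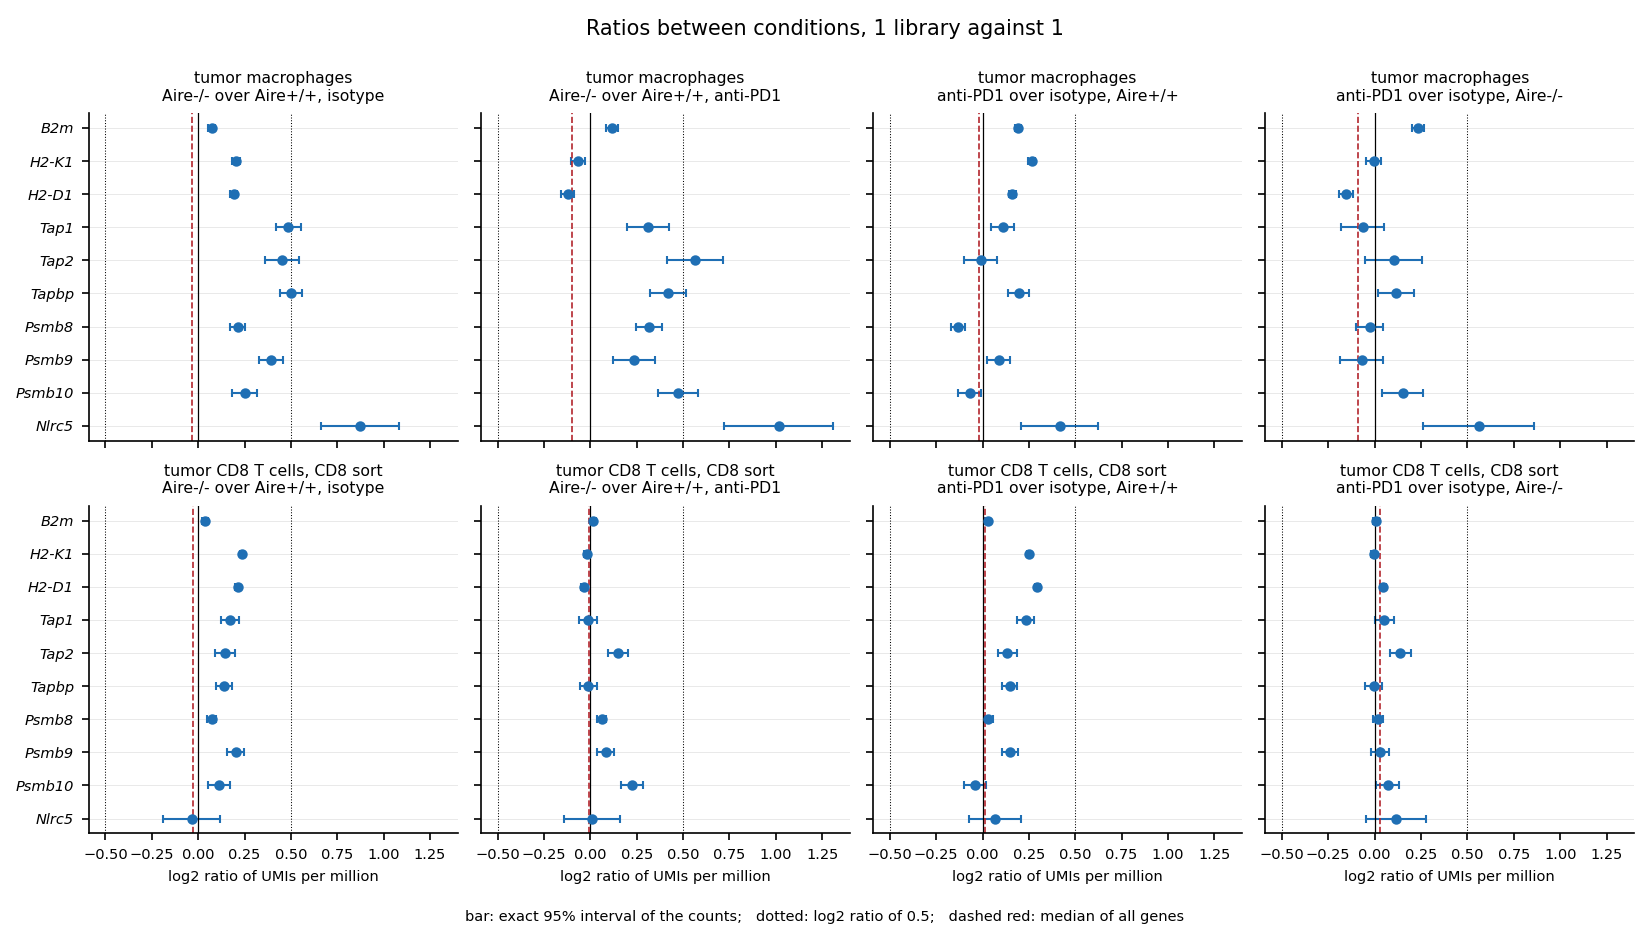
The points show log2 ratios of CPM with exact 95% intervals for each gene in tumor macrophages and in tumor CD8 T cells of the CD8 sort, for 4 contrasts of 1 library with 1 library; dotted lines mark 0.5 either way and the dashed red line the median of all genes. In macrophages Nlrc5 reaches 0.87 and 1.02 between genotypes, while in CD8 T cells no gene passes 0.5; the sign of H2-K1 between genotypes with anti-PD1 in macrophages, -0.07, turns to 0.03 when centred on that median.

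Tumor CD8 T cells of the CD8 sort gave much smaller ratios. In all 4 contrasts 0 of the 10 genes passed 0.5, where 5.62% of genes passed between genotypes with isotype, 4.94% between genotypes with anti-PD1, 4.17% between treatments in Aire+/+ mice and 3.33% between treatments in Aire-/- mice. The medians of the 10 genes were 0.14, 0.01, 0.14 and 0.04, against -0.03, -0.01, 0.02 and 0.03 over all genes. The Aire+/+ isotype library was the lowest of the 4 for 8 of the 10 genes. H2-D1, at 2827, 3465, 3275 and 3378 CPM, had the largest ratio, 0.29 (0.28 to 0.31) for anti-PD1 over isotype in Aire+/+ mice, and H2-K1 gave 0.25 (0.24 to 0.26) in the same contrast. Of the regulators, Irf1, a transcription factor of the interferon response, was at 107, 144, 179 and 253 CPM, with log2 ratios of 0.73 and 0.81 between genotypes and of 0.42 and 0.50 between treatments. Ifngr2 gave 0.72 between genotypes with anti-PD1. Irf9 gave 0.45 and Ifng -0.44 between treatments in Aire+/+ mice.

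Splenic Treg cells were not compared between conditions. Over the other 14 classes, in contrasts with at least 50 cells in both libraries, there were 439 such ratios in 46 contrasts, and 12 passed 0.5, where 7.24% of the 243470 ratios of all genes did. Of these 12, 8 belong to Nlrc5 (of its 27 ratios) and 4 to the other genes (of 412). In tumor monocytes, Nlrc5 was at 37.7, 39.2, 55.5 and 65.4 CPM, the same order of conditions as in macrophages, with log2 ratios between genotypes of 0.56 (0.31 to 0.81) with isotype and 0.74 (0.46 to 1.02) with anti-PD1. In splenic B cells it was instead lowest in the Aire-/- anti-PD1 library, with -0.99 (-1.50 to -0.48) between genotypes with anti-PD1 and 0.64 (0.15 to 1.14) between treatments in Aire+/+ mice, from 55 to 88 UMIs a library. Nlrc5 gave -0.54 (-0.75 to -0.34) for anti-PD1 over isotype in splenic CD8 T cells of the CD8 sort from Aire-/- mice. The same cells in the CD45 sort went the other way, with 24.8 CPM for isotype and 29.5 CPM for anti-PD1, from 24 and 33 UMIs. Among the other genes, H2-K1 in tumor NK cells gave 0.54 (0.48 to 0.59) between genotypes with isotype and 0.05 (0.01 to 0.10) with anti-PD1. Tap2 in splenic monocytes gave 0.56 (0.03 to 1.09) between genotypes with anti-PD1 and 0.59 (0.05 to 1.13) between treatments in Aire-/- mice, from 54 to 73 UMIs a library, while the matching ratios were -0.00 with isotype and 0.03 in Aire+/+ mice.

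Small differences ran in the same direction in several, though not all, cell types. In the tumors, over 8 classes and 79 values with enough UMIs, the lowest of the 4 conditions was the Aire+/+ isotype library in 45 values, the Aire+/+ anti-PD1 library in 18, the Aire-/- isotype library in 9 and the Aire-/- anti-PD1 library in 7, against 27.1%, 20.4%, 25.0% and 27.5% of the values of all genes. The highest was in the same libraries in 5, 16, 29 and 29 values, against 29.0%, 23.7%, 20.4% and 26.9%. Tap1 and H2-D1 were each lowest in the Aire+/+ isotype library in 7 of 8 classes. The classes did not all agree: in tumor CD4 T cells the lowest was the Aire-/- isotype library for 7 of 9 genes and the Aire+/+ isotype library for 1, and in tumor Treg cells the Aire+/+ anti-PD1 library for 5 of 10 and the Aire+/+ isotype library for 2. CD8 T cells enter once for each sort. In the spleens, over 7 classes and 66 values, the highest lay in the Aire-/- anti-PD1 library in 45 and in the others, in the order above, in 5, 5 and 11, against 33.3% and 20.8%, 22.7% and 23.2% over all genes. The lowest lay in the Aire+/+ anti-PD1 library in 39 and in the others in 16, 6 and 5, against 29.6% and 26.8%, 23.9% and 19.7%. H2-D1 and Psmb9 were highest in the Aire-/- anti-PD1 spleen in 7 of 7 classes, and Psmb8 and Psmb9 lowest in the Aire+/+ anti-PD1 spleen in 7 of 7. Nlrc5 did not share this order in the spleens: with all 7 classes taken whatever their UMIs, it was lowest in the Aire-/- isotype library in 3 and the Aire-/- anti-PD1 library in 4, and highest in an Aire+/+ library in 6. Most of these counts are low, with 3 to 7 UMIs a library in NK cells and 7 to 12 in Treg cells. CD4 T cells had 15 to 19, monocytes 9 to 33 and CD8 T cells of the CD45 sort 24 to 33. Of the classes with enough UMIs, B cells and CD8 T cells of the CD45 sort were highest in an Aire+/+ library. CD8 T cells of the CD8 sort were highest in the Aire-/- isotype library (32.3 CPM) and lowest in the Aire-/- anti-PD1 library (22.2 CPM). Classes of 1 sort come from the same library in each condition, so they share its handling and free RNA and are not independent, and no test was made.

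The 10 genes also varied together across cell types. Over 43 sums of cell type and library in the CD45 sort with at least 50 cells, 44 of the 45 pairs of genes had a Pearson correlation of log2 levels above 0, with a median of 0.630, where 55.1% of the 4028541 pairs of other genes with a mean of at least 50 CPM were above 0, with a median of 0.0660. The highest was Psmb8 with Psmb9 (0.953), then Tap1 with Psmb9 (0.909) and Tap1 with Tapbp (0.900), and the lowest was H2-K1 with Psmb10 (-0.105). Of these 2839 other genes, those whose levels were most like the mean of the 10 genes were Plekhb2 (0.902), Lmnb1 (0.897), Psme2 (0.883), Got1 (0.881) and Il1r2 (0.875). The sums share libraries, depth and tissue, and the correlations are a description.

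Positions are from the RefSeq annotation of GRCm38.p6. The 10 genes lie on 3 chromosomes, and 7 of them sit within 1348 kb of chromosome 17. Psmb9 (chr17:34182030-34187330, minus strand), Tap1 (chr17:34187556-34197225, plus), Psmb8 (chr17:34198195-34201454, plus) and Tap2 (chr17:34204479-34216321, plus) fill 34.3 kb with no other annotated gene between them, and Psmb9 and Tap1 lie on opposite strands with 225 bases between their starts. Tapbp (chr17:33919478-33929290, plus) and H2-K1 (chr17:33996012-34000619, minus) lie on one side of this cluster and H2-D1 (chr17:35263094-35267497, plus) on the other. B2m is at chr2:122147687-122153082 (plus), Nlrc5 at chr8:94434335-94527272 (plus) and Psmb10 at chr8:105935728-105938392 (minus). The neighbours Tap1 and Psmb9 are among the most correlated pairs, whereas Tap2, in the same cluster, had a smaller tumor change than Tap1 in CD8 T cells of the CD8 sort (0.32 and 0.98), a difference that was not tested.

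Promoter sequences were available for 8 of the 10 genes, and not for Tap2 and Nlrc5. The sequences of H2-K1, H2-D1 and B2m, which make up the class I molecule, are shown because the heavy chains were lower in tumor than in splenic NK cells in plain CPM, while B2m was higher. Each line gives the 250 bases before the start used in the RefSeq promoter table (GRCm38.p6), 5′ to 3′ on the gene's strand: H2-K1 at chr17:34000348-34000597 (minus), H2-D1 at chr17:35262844-35263093 (plus) and B2m at chr2:122147437-122147686 (plus). That start lies 272 bases inside the annotated H2-K1 gene, and at the annotated start for H2-D1 and B2m, so distances to the start are not comparable between the heavy chains. Capitals mark matches to GGGANTCCC (a kappa B motif), GAANNGAAA and GAAANNGAA (forms of the interferon-stimulated response element that differ in spacing), TGACG (the core of a cyclic AMP response element) and CCAAT, on either strand; none of the matches overlap.
H2-K1: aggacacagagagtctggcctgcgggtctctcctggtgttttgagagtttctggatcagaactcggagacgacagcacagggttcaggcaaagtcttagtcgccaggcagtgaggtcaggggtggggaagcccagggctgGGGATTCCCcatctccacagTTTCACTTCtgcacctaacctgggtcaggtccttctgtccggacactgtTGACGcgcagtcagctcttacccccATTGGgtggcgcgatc
H2-D1: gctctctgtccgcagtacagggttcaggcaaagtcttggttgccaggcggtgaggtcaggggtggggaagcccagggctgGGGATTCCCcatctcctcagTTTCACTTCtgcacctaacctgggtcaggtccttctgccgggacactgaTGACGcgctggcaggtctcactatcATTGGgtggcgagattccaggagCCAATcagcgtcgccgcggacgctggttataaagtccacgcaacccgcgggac
B2m: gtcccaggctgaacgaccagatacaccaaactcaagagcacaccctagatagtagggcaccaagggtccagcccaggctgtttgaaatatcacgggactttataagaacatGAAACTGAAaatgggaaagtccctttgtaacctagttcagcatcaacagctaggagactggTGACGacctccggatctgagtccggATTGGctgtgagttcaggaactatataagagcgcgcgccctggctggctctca

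Both heavy chain promoters hold GGGANTCCC, 110 bases before the start in H2-K1 and 170 in H2-D1, and 209 of the 32851 promoters of the same length hold it (0.636%). GAANNGAAA follows it on the other strand, 90 and 150 bases before the start, a motif that 6.31% of promoters hold. The B2m window has no match to either of these letter patterns, and holds GAAANNGAA 139 bases before the start (7.13% of promoters). Kappa B motifs with other letters or spacing were not searched. The B2m window may therefore hold one, and no difference in kappa B sites between B2m and the heavy chains is read from this. TGACG is present in 5 of the 8 genes searched, B2m, H2-K1, H2-D1, Tap1 and Psmb9 (17.8% of promoters), and CCAAT in 6, the same 5 and Tapbp (33.8% of promoters). The windows of Tap1 and Psmb9 overlap, and the TGACG and the CCAAT they hold are the same sites, counted for both genes. TTCNNNGAA, the gamma-activated site, is present in Psmb8 (7.02% of promoters). A match describes the letters in the window and shows no binding, and where no match was found the factor may still act elsewhere.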

How the data were processed

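The authors deposited 1 table per library of UMI counts for each gene and cell barcode, made from 10x Genomics reads on the GRCm38 build according to the submitters' processing notes; the values are counts, as deposited. Rows were summed by symbol, the part of the row name before the first _. Cells with under 200 genes or over 20% mitochondrial UMIs were removed, as the study's methods state. No doublet caller was run; each gate bars the markers of some other lineages and not of all, so doublets may remain, and no cell fell in more than 1 gate. Gates required at least 15 UMIs of C1qa, C1qb, C1qc, Ms4a7 and Adgre1 (macrophages), 10 of monocyte markers with at most 4 of macrophage markers (monocytes), 10 of mature DC markers, 5 of NK markers with at most 2 of Cd3 genes (NK cells), 10 of B cell markers (B cells), or 3 of Cd3 genes with 3 of Cd8a and Cd8b1 and 0 of Cd4 and Foxp3 (CD8 T), with at least 1 of Cd4 and 0 of Foxp3 (CD4 T), or with at least 1 of Foxp3 (Treg). UMIs were summed per library and type.

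Tests used edgeR 4.0.16 (quasi-likelihood, TMM) in R 4.3.3 on genes with at least 10 UMIs in at least 4 sums and types with at least 20 cells a library, with condition or library as a block and Benjamini-Hochberg adjustment over all genes. DESeq2 1.42.0, RLE scaling, library totals with and without ribosomal and mitochondrial genes, no low-count filter, no block, doubled gates and leaving out each condition were alternatives. Ratios between single libraries, their exact 95% intervals and all else were computed in Python 3.11.15 with numpy 2.4.6, scipy 1.17.1 and pandas 2.3.3; figures used matplotlib 3.10.9. The tests and intervals were tested on simulated data. All 10 genes are named; of each related list and comparison, at most the 2 highest and 2 lowest values among genes with at least 100 UMIs are named, plus the 5 genes most like the 10 by Pearson correlation of log2(CPM + 10). The genes, lists and comparisons were chosen with earlier results of these data known, and the test of NK against CD8 T cells was added after their values were seen. The kappa B motif and 1 response element form were shortened to 9 letters after a first search with longer forms, which fewer promoters held. Contrasts of conditions with under 50 cells in a library (10 of them) were left out, and splenic Treg cells were not compared between conditions.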

Additional observations from a re-analysis of the deposited data

Results flagged for a closer look

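In 4 of the 10 genes the change from spleen to tumor differed between NK cells and CD8 T cells of the CD45 sort, by edgeR's quasi-likelihood test of the difference itself over 4 conditions, where 21.5% of 9135 genes were called. The log2 difference, NK cells minus CD8 T cells, was -0.56 for H2-D1, -0.38 for H2-K1, -0.42 for Psmb9 and -0.43 for Tap2. Its median over the 10 genes was -0.12, against -0.06 over all genes. With 1 condition left out 1 to 3 genes were called: Tap2 lost its call in all 4 fits, Psmb9 in 2 and H2-K1 in 1, and H2-D1 kept it. NK marker levels and library depth also differ between the tissues, and their part in these differences was not tested.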

How the results depend on the processing

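Directions and calls were recomputed under each alternative; library totals, totals without ribosomal and mitochondrial genes (reduced totals) and the NK against CD8 T test were added after seeing the data, and the cause of each change below was not tested. Of CD4 T cell genes called between tumor and spleen (7), 4 were called with doubled gates, 4 with reduced totals and 4 to 6 with 1 condition left out. The fit with doubled gates held 3 conditions and tested 9 of the 10 genes. Between macrophages and monocytes (9 called), library totals gave 5, reduced totals 5, no block 3 and leaving out 1 condition 4 to 9. For the difference between NK and CD8 T cells (4 called), DESeq2 gave 2, library totals 9 and leaving out 1 condition 1 to 3. With library totals B2m (-0.31), Tapbp (-0.38) and Psmb10 (-0.39) changed sign, from 0.14, 0.07 and 0.07, which were not called. That scale moves all genes of the test alike, so no result is read from these sign changes. Leaving out 1 condition gave 8 to 8 genes in CD8 T cells of the CD8 sort, 8 to 9 in those of the CD45 sort, 4 to 5 in NK cells, 4 to 6 for macrophages against CD8 T cells and 7 to 7 for B cells. With reduced totals Psmb10 in CD8 T cells of the CD8 sort (-0.25) and H2-D1 (-0.24), Tap1 (-0.036) and Psmb9 (-0.23) in macrophages against CD8 T cells reversed. Other alternatives kept each of these counts within 1.5 times. Of macrophage genes past 0.5 between genotypes with isotype (1), 4 passed with each cell weighted equally, 3 when centred on the median of all genes, 3 without the 5% of cells with most UMIs and 0 at a log2 fold of 1. With anti-PD1 (2), 4 passed when centred and 1 at a log2 fold of 1; between treatments in Aire-/- mice (1), 0 passed at a log2 fold of 1. In the other cell types (8 past 0.5), 0 passed at a log2 fold of 1 and 13 with at least 10 UMIs over the pair. Depth limits Nlrc5 most, since its sums hold the fewest UMIs. Differences between genotypes or treatments were not tested.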
